A study of Mus musculus with 4 samples.

Results

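The 10 genes that stood out in lineage-labelled alveolar cells after partial lung removal in mice with Cdc42 deleted in AT2 cells are described here: Clu, Sprr1a, Sfn, Gkn2, Tnfrsf11b, Tnip3, Ntm, Rgs4, Sdcbp2 and Cda. They are 10 of the 17117 genes in a table of unique molecular identifiers (UMIs, 1 per captured RNA molecule) from 10077 single cells. The 10 genes were picked because earlier results of these data showed them high in the null pneumonectomy library, so their height in that library is given as a description. The single-cell table holds 4 libraries with 1 library per group. The null pneumonectomy (PNX) group came from tamoxifen-treated mice carrying Sftpc-CreER, Cdc42flox/- and Rosa26-mTmG, collected 21 days after the surgery. The null sham group had that same genotype and a sham operation. The control PNX and control sham groups carried Cdc42flox/+ in place of Cdc42flox/-, with pneumonectomy 21 days earlier or a sham operation. Mice of all 4 groups received 4 doses of tamoxifen and are labelled postnatal day 80, and the labels do not say whether that day is that of the surgery or of collection. In all groups the Sftpc promoter drove the recombinase, so deletion and the GFP label were aimed at alveolar type II (AT2) cells, and GFP+ cells were sorted. The controls carry 1 floxed allele as well, beside a wild-type one, so all 4 groups share the floxed allele, the recombinase and the drug. How many mice stand behind a library was not stated in the labels.

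AT2 cells make surfactant and are the stem cells of the alveolus. When lung is lost or injured they divide and turn into flat alveolar type I (AT1) cells, which carry out gas exchange. On the way they pass through a transitional state known for the tight junction gene Cldn4, the simple epithelial keratin Krt8 and signs of stress and growth arrest. Cdc42 is a GTPase with a part in actin assembly and in polarity. Pneumonectomy stretches the remaining lung and sets off regrowth of alveoli. Because there is 1 library per group, no difference between groups could be tested. Intervals cover counting error only, and the effect of surgery or genotype cannot be told apart from that of the mice, sort or library.

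Alveolar cells were those with Sftpc, the AT2 surfactant gene, at 2% or more of their UMIs or with at least 1 Cldn4 UMI, and with no UMI of Ptprc, Pecam1 or Col1a2, the leukocyte, endothelial and fibroblast genes. The rule kept 1858 of 2370 null PNX cells, 2630 of 3344 null sham cells, 1972 of 2252 control PNX cells and 1669 of 2111 control sham cells. Cldn4 alone admitted 424, 19, 1 and 0 of them in that order of libraries. Between 1% and 2% of Sftpc, just outside the threshold, lay 32 null PNX, 38 null sham, 11 control PNX and 46 control sham cells. Between 2% and 3%, just inside it, lay 32, 185, 20 and 3 cells of the same libraries.

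The promoters of 4 of the 10 genes are shown because they carry, or lack, letters bound by factors of stress, stretch and inflammatory responses. Each run holds the 250 bases before a start that RefSeq annotates, 5′ to 3′ on the gene's strand, from RefSeq on GRCm38.p6 (mm10), and capitals mark the motif searched. RefSeq entries were matched for 8 of the 10 genes. Clu and Tnfrsf11b had no entry in the table used. The Sprr1a window is chr3:92485882-92486131 on the minus strand, with capitals on 2 AP-1 motifs, 146 to 140 and 116 to 110 bases before the start. The Sdcbp2 window is chr2:151572373-151572622 on the plus strand, with an AP-1 motif 44 to 38 bases before the start. The Tnip3 window is chr6:65590148-65590397 on the plus strand, with an NF-kB motif 54 to 45 bases before the start, which lies inside the gene's span in the GENCODE annotation. The Rgs4 window is chr1:169747643-169747892 on the minus strand and held none of the AP-1, TEAD or NF-kB letters.
Sprr1a: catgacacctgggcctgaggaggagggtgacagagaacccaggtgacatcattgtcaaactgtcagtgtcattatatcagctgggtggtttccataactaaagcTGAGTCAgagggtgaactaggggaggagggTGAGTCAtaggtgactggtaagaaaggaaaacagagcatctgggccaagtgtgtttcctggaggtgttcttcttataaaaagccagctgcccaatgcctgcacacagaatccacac
Sdcbp2: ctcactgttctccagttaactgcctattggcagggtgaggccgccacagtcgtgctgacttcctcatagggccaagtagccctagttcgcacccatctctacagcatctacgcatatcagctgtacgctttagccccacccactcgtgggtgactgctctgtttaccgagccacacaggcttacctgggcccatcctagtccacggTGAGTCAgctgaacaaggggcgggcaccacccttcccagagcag
Tnip3: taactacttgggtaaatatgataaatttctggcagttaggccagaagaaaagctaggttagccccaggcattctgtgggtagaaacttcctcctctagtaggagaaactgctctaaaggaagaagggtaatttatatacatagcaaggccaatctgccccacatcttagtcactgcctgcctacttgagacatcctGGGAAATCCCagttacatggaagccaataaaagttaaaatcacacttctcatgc
Rgs4: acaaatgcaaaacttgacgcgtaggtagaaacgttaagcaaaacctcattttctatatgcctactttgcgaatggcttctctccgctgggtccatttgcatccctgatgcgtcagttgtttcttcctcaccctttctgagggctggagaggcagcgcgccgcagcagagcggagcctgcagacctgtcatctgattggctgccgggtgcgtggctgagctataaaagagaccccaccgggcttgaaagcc
AP-1 was searched as TGANTCA, TEAD as GGAATG and NF-kB by its usual 10-base consensus, each on both strands. AP-1 letters stood in 2 of the 8 genes, against 6.75% of 32851 RefSeq promoter windows of this length. TEAD letters stood in 1 of 8, Ntm, at 146 to 141 bases before the start of chr9:29413453-29413702, a start inside the gene's GENCODE span, against 12.6% of all windows. NF-kB letters stood in 1 of 8, Tnip3, against 7.25%. The letters CCAAT were held by 7 of 8, against 33.8% of all windows, and TATAAA by 4 of 8, against 12.4%. The 8 genes had 9 windows, since Ntm had a second at chr9:29412686-29412935, which held none of the letters searched. For each motif the count out of 9 windows equalled that out of 8 genes. A match describes letters in a window and does not show a bound factor.

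In the GENCODE M21 annotation of mm10, Clu lies at chr14:65968483-65981547, Sprr1a at chr3:92483952-92485895, Sfn at chr4:133600556-133602168 and Gkn2 at chr6:87373357-87379497. Tnfrsf11b lies at chr15:54250619-54278484, Tnip3 at chr6:65525313-65634040, Rgs4 at chr1:169741477-169747642, Sdcbp2 at chr2:151572622-151590005 and Cda at chr4:138338424-138367992. Ntm, at chr9:28994750-29963141 on the minus strand, overlaps the antisense gene Gm15520 and the intronic gene Gm15521, so its counts carry that uncertainty. Sprr1a and Sfn belong to gene families with close relatives, and no source used here states how reads shared between relatives were counted.

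Alveolar cells of null PNX held 20914459 UMIs, those of null sham 14528959, those of control PNX 9977520 and those of control sham 8145379. The median alveolar cell held 10595 UMIs in null PNX and 4763 to 5129 in the other libraries, so shares of cells with a UMI are given after each cell was thinned to 2500 UMIs. Thinning left out 0 null PNX, 255 null sham, 162 control PNX and 183 control sham cells. Between 2 and 14 cell barcodes were shared by each pair of libraries. Levels are in CPM, the summed UMIs of a gene in alveolar cells per 1000000 UMIs of those cells. A gene at 0 has a limit of 3 UMIs per library, which is 0.143 CPM in null PNX, 0.206 in null sham, 0.301 in control PNX and 0.368 in control sham. Cdc42 itself stood at 405 CPM in null PNX, 265 in null sham, 226 in control PNX and 184 in control sham, so it was not lower in the null libraries. The labels do not say which part of the gene the floxed allele loses, and RNA counted at its 3′ end may lie outside it, so this value checks nothing. Sftpc, the defining AT2 gene, averaged 60946 CPM in null PNX, 68513 in null sham, 122766 in control PNX and 128230 in control sham, and every alveolar cell of null PNX had it. Defining genes of other cells were low: 9 lymphocyte genes summed to 28.9 to 42.1 CPM, 7 endothelial genes to 23.0 to 33.1 and 7 fibroblast genes to 2.91 to 28.4 across the libraries. The rule itself asked for Ptprc, Pecam1 and Col1a2 at 0, so these low sums are in part set by it. The 12 myeloid genes summed to 6327 CPM in null PNX, 12310 in null sham, 11736 in control PNX and 11546 in control sham, nearly all of it Lyz1. Some other myeloid genes were higher in null PNX: Cd14 stood at 51.5 CPM in null PNX, 7.98 in null sham, 5.01 in control PNX and 8.47 in control sham. The macrophage gene C1qb stood at 17.9 CPM in null PNX, 4.47 in null sham, 0.100 in control PNX and 7.12 in control sham, and 22.6 CPM in Cldn4-positive against 11.2 CPM in Cldn4-negative null PNX cells. The part of myeloid RNA in the levels of the 10 genes was not tested. Airway secretory RNA was present, and 9 airway genes summed to 5754 CPM in null PNX, 4935 in null sham, 1308 in control PNX and 5316 in control sham. In null PNX, 17 alveolar cells with Scgb1a1 at 1% or more of their UMIs held 81.4% of the Scgb1a1 and 93.4% of the Scgb3a2, both airway secretory genes. Those 17 cells held 0.525% of the Clu, 0.540% of the Tnip3 and 0.727% of the Sdcbp2 UMIs of the library, and at most 0.913% (Cda) of any of the 10 genes.

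**Figure D1:**
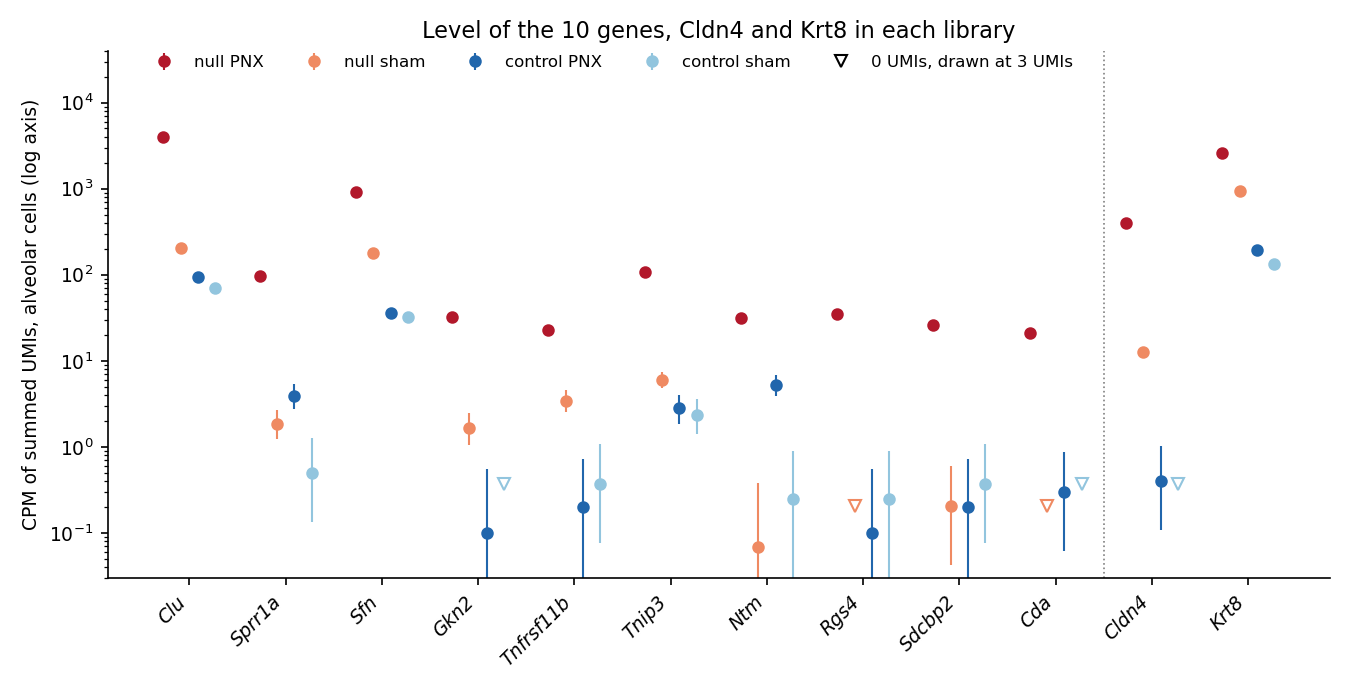
Level of the 10 genes, Cldn4 and Krt8 in alveolar cells of each library, in CPM on a log axis. Points are single libraries in the order null PNX, null sham, control PNX and control sham, bars are exact 95% Poisson intervals, and open triangles stand at 3 UMIs for a gene with none. The null PNX point is the highest for every gene, and for Ntm the control PNX point, at 5.21 CPM, is above both sham points.

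All 10 genes were higher in null PNX than in null sham, by 5.08-fold to 459-fold among the 8 that null sham held at all. The background is 17.1% of 14644 genes with over 3 UMIs in either library that were at least 2-fold higher in null PNX. Since the genes were chosen on this contrast, nothing is read from that count. All 10 were also at least 2-fold higher in null PNX than in control PNX, where the background is 22.2% of genes, and both comparisons share the null PNX library. Of 7366 genes at 10 CPM or more in null PNX, ranked by the ratio to the highest of the other libraries, Rgs4 was at rank 4, Sdcbp2 at 5 and Cda at 6. Cldn4 was at rank 14, Sprr1a at 21, Gkn2 at 30, Clu at 31, Tnip3 at 33, Tnfrsf11b at 93, Ntm at 104, Sfn at 132 and Krt8 at 305. Rgs4, Sdcbp2 and Cda thus stood above the established markers Cldn4 and Krt8 in this order, which describes 4 libraries.

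Among genes for secreted proteins, Clu encodes clusterin, an extracellular chaperone. Clu stood at 4026 CPM in null PNX, 206 in null sham, 93.9 in control PNX and 70.3 in control sham. Null PNX was 19.5-fold above null sham (95% interval 18.8 to 20.2) and 42.9-fold above control PNX. Clu was present across nearly the whole null PNX library: after thinning, 93.0% of null PNX alveolar cells had a UMI, against 28.1% in null sham, 16.1% in control PNX and 13.997% in control sham. Unthinned, the shares were 99.1%, 44.0%, 27.6% and 22.7%. Of thinned null PNX lymphocytes 59.6% had a Clu UMI as well, and the part of free RNA in the alveolar shares was not tested.

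Gkn2 encodes gastrokine 2, a BRICHOS domain protein best known from the stomach. Gkn2 stood at 32.3 CPM in null PNX (675 UMIs), 1.65 in null sham (24 UMIs), 0.100 in control PNX (1 UMI) and 0 in control sham. Null PNX was 19.5-fold above null sham (13.02 to 30.7) and 322-fold above control PNX (57.6 to 12738). It was unevenly spread over cells: 150 of 1858 null PNX cells held it, 64 of the 675 UMIs were in 1 cell, and 13 of the 24 in null sham were in 1 cell.

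Tnfrsf11b encodes osteoprotegerin, a secreted decoy receptor for the ligands RANKL and TRAIL. Tnfrsf11b stood at 22.5 CPM in null PNX (471 UMIs), 3.44 in null sham (50 UMIs), 0.200 in control PNX (2 UMIs) and 0.368 in control sham (3 UMIs). Both null libraries were above both controls, and null PNX was 6.54-fold above null sham (4.88 to 8.94) and 112-fold above control PNX (30.9 to 930). This gene leaned most on the cells that Cldn4 admitted. Over cells with Sftpc at 2% or more only, 1434 in null PNX and 2611 in null sham, it stood at 5.72 CPM in null PNX and 3.20 in null sham, a ratio of 1.79 (1.24 to 2.60). The other 9 genes stayed at least 2-fold higher in null PNX in those cells, with Clu at 10.9-fold and Tnip3 at 8.38-fold.

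Of the genes named for squamous differentiation and arrest, Sprr1a encodes a small proline-rich precursor of the cornified envelope. Sprr1a stood at 96.0 CPM in null PNX, 1.86 in null sham (27 UMIs), 3.91 in control PNX (39 UMIs) and 0.491 in control sham (4 UMIs). The other 3 libraries were all low, and 19 of the 39 UMIs in control PNX came from 1 cell. Null PNX was 51.7-fold above null sham (35.4 to 78.6) and 24.6-fold above control PNX. In null PNX 301 of 1858 cells held it, at 6.67 UMIs per cell that had any.

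Sfn encodes 14-3-3 sigma, an epithelial adaptor protein induced by p53 that holds cells before mitosis. Sfn stood at 905 CPM in null PNX, 178 in null sham, 36.3 in control PNX and 32.4 in control sham. The libraries fell into an ordered series for this gene, with null sham between null PNX and the controls. The ratio of null PNX to null sham was 5.08 (4.87 to 5.29), and to control PNX 24.9.

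Tnip3, Rgs4 and Sdcbp2 encode intracellular signalling proteins. Tnip3 belongs to the proteins that bind the ubiquitin editor A20 and restrain NF-kB. Tnip3 stood at 106 CPM in null PNX, 6.06 in null sham, 2.81 in control PNX and 2.33 in control sham. It was 17.5-fold above null sham (14.2 to 22.0) and 37.9-fold above control PNX in null PNX, where 506 of 1858 cells held it.

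Rgs4 speeds the switching-off of G proteins downstream of receptors. Rgs4 had 737 UMIs in null PNX (35.2 CPM), 0 in null sham, 1 in control PNX (0.100 CPM) and 2 in control sham (0.246 CPM). It was close to silent in every library but null PNX, which was at least 171-fold higher than null sham, counted against 3 UMIs in that library. Against the 1 UMI of control PNX the ratio was 352 (62.9 to 13906).

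Sdcbp2 encodes syntenin 2, a PDZ domain adaptor that binds phosphoinositides and is related to the syndecan-binding protein syntenin 1. Sdcbp2 had 550 UMIs in null PNX (26.3 CPM), 3 in null sham (0.206 CPM), 2 in control PNX (0.200 CPM) and 3 in control sham (0.368 CPM). Alveolar cells of the other 3 libraries were thus at or under the limit of counting. The ratio of null PNX to null sham was 127 (43.4 to 619). Lymphocytes carried Sdcbp2 in each library, at 19.3 CPM in null PNX, 18.7 in null sham, 7.72 in control PNX and 21.8 in control sham, so its near absence outside null PNX is a statement on alveolar cells.

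Ntm encodes neurotrimin, a membrane-anchored adhesion protein of the IgLON family known from neurons. Ntm had 661 UMIs in null PNX (31.6 CPM), 1 in null sham (0.0688 CPM), 52 in control PNX (5.21 CPM) and 2 in control sham (0.246 CPM). It was the gene held above the limit of counting in both pneumonectomy libraries and in neither sham library. The ratio of null PNX to null sham was 459 (82.1 to 18164), and to control PNX 6.06 (4.57 to 8.21). In control PNX the 52 UMIs were spread over 47 cells. In cells with Sftpc at 2% or more, null PNX was 2.299-fold above control PNX (1.69 to 3.18).

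Cda encodes cytidine deaminase, an enzyme of pyrimidine salvage. Cda had 438 UMIs in null PNX (20.9 CPM), 0 in null sham, 3 in control PNX (0.301 CPM) and 0 in control sham. Null PNX was at least 101-fold higher than null sham, counted against 3 UMIs in that library. It was thinly spread, with 319 of 1858 cells holding it at 1.37 UMIs per such cell.

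Loss of Cdc42 without pneumonectomy was the comparison of null sham with control sham, which does not contain the null PNX library. A ratio could be formed for 6 of the 10 genes, and all 6 were at least 2-fold higher in null sham, against a background of 9.97% of genes. At 10 CPM or more in the higher library 2 of 2 genes, Sfn and Clu, were 2-fold higher, against a background of 4.13%. Sfn stood at 178 CPM in null sham and 32.4 in control sham, a ratio of 5.50. Clu stood at 206 CPM in null sham and 70.3 in control sham, a ratio of 2.93. Tnip3 reached 2.60, Tnfrsf11b 9.34 (3.02 to 46.8, on 3 UMIs in control sham) and Sprr1a 3.78 (1.32 to 14.9). Sfn and Clu were thus the genes with a clear level in null sham cells. The Gkn2 level was at least 4.49-fold higher in null sham than in control sham, and without its top cell the limit fell to 1.04 on the log2 scale, against 2.17 with it. The Sprr1a log2 ratio fell to 0.50 without cells that Cldn4 admitted, and to 0.13 with an Sftpc threshold of 1%, against 1.92. Ntm, Rgs4, Sdcbp2 and Cda were at or under 3 UMIs in both sham libraries.

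Surgery in the control genotype was the comparison of control PNX with control sham. Of 5 genes with a ratio, 2 were at least 2-fold higher in control PNX, against a background of 6.19% of genes. At 10 CPM or more 0 of 2 genes, Clu and Sfn, were 2-fold higher, against a background of 1.29%. Ntm stood at 5.21 CPM in control PNX and 0.246 in control sham, a ratio of 21.2 (5.59 to 180). Sprr1a stood at 3.91 CPM in control PNX and 0.491 in control sham, a ratio of 7.96 (2.87 to 30.7), with nearly as many UMIs in its top cell as in all the others together. Clu at 1.33-fold (1.20 to 1.48), Tnip3 at 1.20-fold and Sfn at 1.12-fold were under 2-fold. By fold, Ntm and Sprr1a thus stood out in control cells 21 days after surgery, both at low levels. In amount the difference was larger for Clu, at 93.9 CPM in control PNX and 70.3 in control sham. Gkn2, Tnfrsf11b, Rgs4, Sdcbp2 and Cda were at or under 3 UMIs in both control libraries.

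Cldn4 was detected in 998 of 1858 null PNX alveolar cells, 69 of 2630 null sham, 3 of 1972 control PNX and 0 of 1669 control sham cells. Within null PNX all 10 genes were at least 2-fold higher in Cldn4-positive than in Cldn4-negative cells, against a background of 9.9% of genes. These are cells of 1 library and not replicates. Cldn4-positive cells were deeper, with a median of 11813 UMIs against 9629 in Cldn4-negative cells. Cldn4-positive cells had more Krt8, 3415 CPM against 1330, and less Sftpc, 44633 CPM against 84486, where the rule itself lets low-Sftpc cells in only with Cldn4.

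Tnfrsf11b and Tnip3 followed Cldn4 most. Tnfrsf11b stood at 36.8 CPM in Cldn4-positive and 1.87 CPM in Cldn4-negative null PNX cells, a ratio of 19.7. Tnip3 stood at 174 CPM in Cldn4-positive and 9.11 in Cldn4-negative cells, a ratio of 19.0. Nearly all the RNA of both genes in this library therefore lay in cells with a Cldn4 UMI. Sprr1a, at 152 CPM against 15.9, had a ratio of 9.54, and Ntm, at 49.6 against 5.61, a ratio of 8.85. Clu, at 5825 against 1429 CPM, had a ratio of 4.08, and Sfn, at 1302 against 331, a ratio of 3.93. The remaining genes were split less sharply. Sdcbp2 stood at 37.1 CPM against 10.7 (3.45), Gkn2 at 42.3 against 17.9 (2.36), Cda at 27.3 against 11.8 (2.31) and Rgs4 at 45.8 against 19.97 (2.29).

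**Figure D2:**
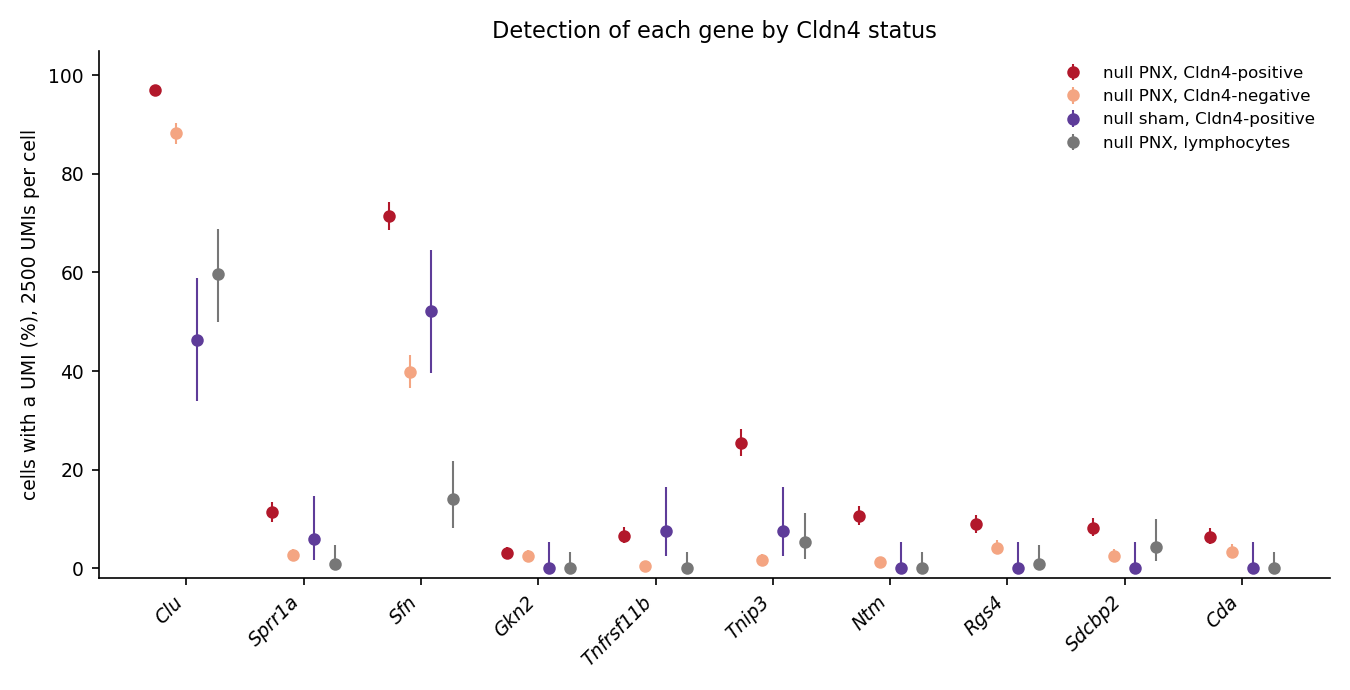
Share of cells with at least 1 UMI of each gene after thinning to 2500 UMIs per cell, for Cldn4-positive and Cldn4-negative null PNX cells, Cldn4-positive null sham cells and null PNX lymphocytes, with exact 95% Clopper-Pearson intervals. Tnip3 separates the Cldn4 groups at 25.4% against 1.74%, whereas Gkn2 stands at 3.01% against 2.44%.

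Thinned to equal depth, Clu was detected in 97.0% of Cldn4-positive and 88.4% of Cldn4-negative cells, Sfn in 71.4% and 39.9%, and Tnip3 in 25.4% and 1.74%. Sprr1a was detected in 11.3% and 2.67%, Ntm in 10.5% and 1.16%, and Tnfrsf11b in 6.61% and 0.465%. Rgs4 was detected in 8.92% and 4.07%, Sdcbp2 in 8.22% and 2.56%, Cda in 6.41% and 3.37%, and Gkn2 in 3.01% and 2.44%. The Gkn2 shares had overlapping intervals (2.04% to 4.26% and 1.52% to 3.71%), so its higher CPM in Cldn4-positive cells went in part with more UMIs per cell that had any. Without thinning, Clu was detected in 99.8% of Cldn4-positive and 98.3% of Cldn4-negative cells, Tnip3 in 44.2% and 7.56%, and Gkn2 in 9.62% and 6.28%.

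Free RNA in droplets was gauged in 114 null PNX lymphocytes, cells with at least 2 UMIs of 8 lymphocyte genes, Sftpc under 2% and no Cldn4, with a median of 3385 UMIs. Lymphocytes carried Sftpc at 8.63% of its alveolar CPM, and Clu at 13.1%, Sfn at 7.80%, Gkn2 at 6.63%, Ntm at 6.77% and Sprr1a at 4.46% of theirs. Tnip3 stood at 20.1%, Rgs4 at 60.7% and Sdcbp2 at 73.2% of their alveolar CPM, and Tnfrsf11b and Cda at 0. After thinning, 59.6% of lymphocytes had Clu, 14.04% Sfn, 5.26% Tnip3, 4.39% Sdcbp2, 0.877% Sprr1a and 0.877% Rgs4, and none had Gkn2, Tnfrsf11b, Ntm or Cda (0 of 114, which allows up to 3.18%). The share of Tnip3 in Cldn4-negative cells was below the lymphocyte share. Control sham lymphocytes held Tnip3 at 8.72 CPM (4 UMIs) against 2.33 CPM in alveolar cells, and those of null sham and control PNX held 0 UMIs. Whether the lymphocyte share of Tnip3 is free alveolar RNA was not tested. The Sdcbp2 share was below its lymphocyte share too. Lymphocytes of the sham libraries carried Sdcbp2 where alveolar cells had nearly none, so for Sdcbp2 the lymphocyte share does not gauge free alveolar RNA. The Rgs4 UMIs of lymphocytes were 10 in 1 cell.

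The 10 genes also moved with how much Cldn4 a cell held. With 1, 2 to 4, and 5 or more Cldn4 UMIs (346, 271 and 381 null PNX cells), Tnfrsf11b stood at 3.24, 10.1 and 79.9 CPM. Tnip3 stood at 25.1, 88.9 and 341 CPM, and Sprr1a at 35.6, 86.7 and 281 CPM. Ntm stood at 12.7, 33.2 and 87.9 CPM. These 4 genes climbed at every step, as did Clu (2567, 3889 and 9547 CPM) and Sfn (475, 798 and 2255 CPM). Sdcbp2, at 18.6, 30.4 and 55.2 CPM, Rgs4, at 30.2, 47.3 and 56.1 CPM, and Cda, at 17.5, 24.2 and 36.5 CPM, climbed less. Gkn2 did not follow this order, with 42.6, 34.9 and 47.1 CPM. Sftpc was lower at each of the same steps, at 69862, 52703 and 20650 CPM, where the rule lets low-Sftpc cells in only with Cldn4.

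Among the 574 Cldn4-positive null PNX cells that also had Sftpc at 2% or more, 9 of the 10 genes were at least 2-fold above Cldn4-negative cells, against a background of 4.32%. Tnip3 was highest at 7.07-fold, and Cda was lowest at 1.86-fold. Leaving out the cells admitted by Cldn4 thus lowered the ratios of Tnfrsf11b, Tnip3, Ntm and Clu by over 1.5 times on the log2 scale. Airway RNA moved with the Cldn4 split. The 9 airway genes, none at 0, summed to 8231 CPM in Cldn4-positive and 2180 CPM in Cldn4-negative cells. The 17 cells rich in Scgb1a1 held most of it. Without them Scgb1a1 stood at 879 CPM in Cldn4-positive and 1108 CPM in Cldn4-negative cells, Clu at 5912 and 1434 CPM, and Tnip3 at 176 and 8.95 CPM.

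Most of the 10 genes were above sham level in Cldn4-negative null PNX cells, with free RNA included in the counts. Over Cldn4-negative null sham cells, 9 of the 10 genes were at least 2-fold higher in Cldn4-negative null PNX cells, against a background of 12% of genes. The genes were picked as high in null PNX, so nothing is read from such counts. Clu stood at 1429 CPM in Cldn4-negative null PNX cells and 193 in Cldn4-negative null sham cells, a ratio of 7.41. Lymphocytes carried Clu at 528 CPM in null PNX and 30.8 CPM in null sham. The part of free RNA in these ratios was not tested. Rgs4 was at least 93.0-fold and Cda at least 54.9-fold higher than in Cldn4-negative null sham cells, counted against 3 UMIs there, and Gkn2 was 10.4-fold higher (6.73 to 16.7). Sprr1a was 24.7-fold higher (12.6 to 55.1), on levels of 15.9 and 0.644 CPM. Tnip3 at 2.49-fold and Sfn at 2.28-fold had the lowest ratios of the 9. Tnip3 stood at 9.11 CPM in Cldn4-negative null PNX cells, below the 21.4 CPM of lymphocytes of that library. Its count among the 9 therefore does not show that Cldn4-negative cells made it. Tnfrsf11b stood at 1.87 CPM in Cldn4-negative null PNX cells and 2.94 CPM in Cldn4-negative null sham cells, and the interval of that ratio spanned 1 (0.637, 0.333 to 1.16). Over all null sham alveolar cells, the Cldn4-positive ones included, the count was 7 of 10, against a background of 11.6%, with Tnip3 at 1.504-fold and Sfn at 1.86-fold.

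The 69 Cldn4-positive cells of null sham, with 564023 UMIs, showed which genes came with Cldn4 without pneumonectomy. Over Cldn4-negative null sham cells, 5 of 5 genes with a ratio were at least 2-fold higher, against a background of 13.9%. They were Sprr1a at 49.5-fold, Tnip3 at 17.96-fold, Sfn at 6.77-fold, Tnfrsf11b at 5.44-fold and Clu at 2.82-fold. All null sham alveolar cells together held 27 Sprr1a UMIs in 9 cells, 8 of them in 1 cell, and 50 Tnfrsf11b UMIs. The ratios of these genes therefore rest on few UMIs. Gkn2, Ntm, Rgs4 and Cda had no UMI in these 69 cells and Sdcbp2 had 2, where 3 UMIs equal 5.32 CPM. Cldn4-positive cells of null PNX held Rgs4 at least 8.61-fold, Ntm at least 9.33-fold, Gkn2 at least 7.94-fold and Cda at least 5.13-fold higher than Cldn4-positive cells of null sham, counted against 3 UMIs. Between the same cells Clu was 10.7-fold, Sprr1a 4.75-fold, Tnip3 2.65-fold, Tnfrsf11b 2.31-fold and Sfn 1.32-fold higher in null PNX. The background of that comparison was 13.4% of genes. The genes were picked as high in null PNX, so these ratios are a description.

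Krt8 gave a like picture with cells binned by Krt8 UMIs after thinning. In null PNX 379 cells had 0 or 1 Krt8 UMI, 639 had 2 to 4, 487 had 5 to 9 and 353 had 10 or more. All 10 genes were at least 2-fold higher in cells with 10 or more Krt8 UMIs than in those with 0 or 1, against a background of 11.7%. Tnfrsf11b had the highest ratio at 23.2, followed by Ntm at 11.1, Sfn at 9.37, Sprr1a and Tnip3 at 8.27 each, Sdcbp2 at 6.09, Gkn2 at 4.67, Clu at 4.32, Cda at 4.1999 and Rgs4 at 3.46. From low to high Krt8, Sfn stood at 244, 369, 933 and 2286 CPM and Tnfrsf11b at 2.60, 4.02, 29.2 and 60.4 CPM. Gkn2 stood at 14.3, 25.1, 26.4 and 66.7 CPM, so it followed Krt8 although it did not follow the number of Cldn4 UMIs. Rgs4 stood at 15.1, 28.7, 43.7 and 52.2 CPM and Cda at 9.10, 15.9, 21.7 and 38.2 CPM, each step above the last.

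**Figure D3:**
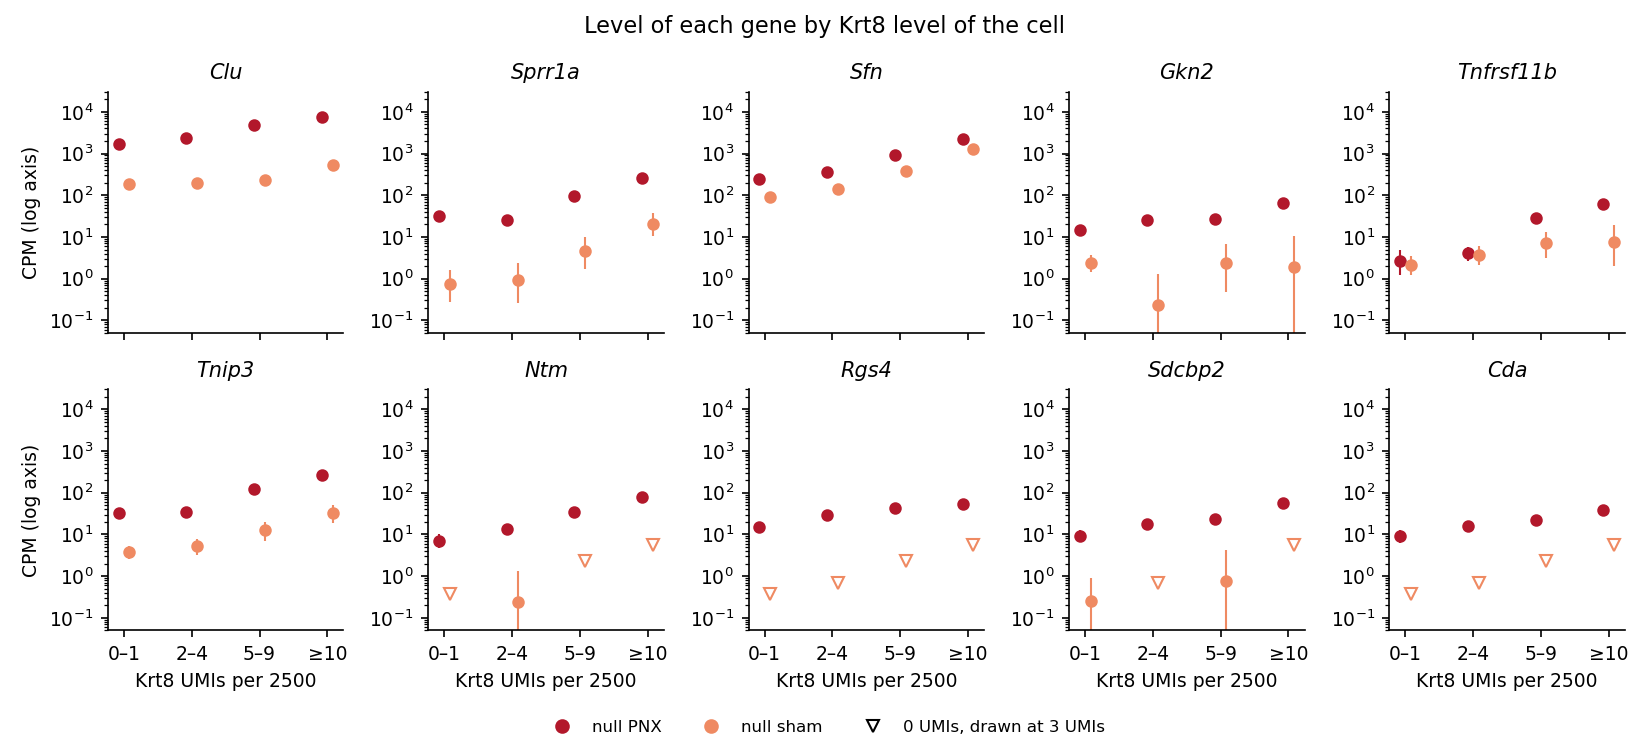
Level of each of the 10 genes in CPM on a log axis, in cells binned by Krt8 UMIs per 2500 UMIs, for null PNX and null sham. Points are summed libraries with exact 95% Poisson intervals, and open triangles stand at 3 UMIs for a gene with none. In the bin of 10 or more Krt8 UMIs, Clu stands at 7514 CPM in null PNX and 519 CPM in null sham.

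Cells of like Krt8 level in the null libraries differed in the 10 genes beyond counting error. In the bin of 10 or more Krt8 UMIs, Krt8 itself stood at 6203 CPM in null PNX (353 cells) and 6539 CPM in null sham (62 cells). In that bin 9 of the 10 genes were at least 2-fold higher in null PNX than in null sham, against a background of 18.8%. The genes were picked as high in null PNX, so nothing is read from that count. Clu stood at 7514 CPM in null PNX and 519 in null sham (14.5-fold), Sprr1a at 265 and 20.6 (12.8-fold) and Tnip3 at 265 and 31.9 (8.31-fold). Sfn, at 2286 CPM in null PNX and 1263 in null sham, differed by 1.81-fold. Sfn thus differed least between the libraries at like Krt8, and the other 9 differed by at least 2-fold. Ntm, Rgs4, Sdcbp2 and Cda had 0 UMIs in the 62 null sham cells, and null PNX was at least 13.9-fold, 9.29-fold, 10.1-fold and 6.80-fold higher in that order, counted against 3 UMIs. Gkn2 had 1 UMI there (35.6-fold, 6.34 to 1411), and Tnfrsf11b had 4 (8.06-fold, 3.11 to 29.8). Cldn4 stood at 1187 CPM in null PNX and 157 in null sham, and Sftpc at 26380 and 50650 CPM, in the same bin.

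Within null sham, 5 of 6 genes were at least 2-fold higher at 10 or more Krt8 UMIs than at 0 or 1, against a background of 11.4%. Sprr1a was 27.2-fold, Sfn 13.8-fold, Tnip3 8.41-fold, Tnfrsf11b 3.49-fold and Clu 2.78-fold higher, and Gkn2 was at 0.781. The Sprr1a ratio rests on few UMIs, since all null sham alveolar cells together held 27 in 9 cells. Within the 353 null PNX cells of highest Krt8, the 238 with Cldn4 after thinning were at least 2-fold above the 115 without it for 4 of the 10 genes, against a background of 7.02%. These were Tnfrsf11b at 10.5-fold, Sprr1a at 3.38-fold, Tnip3 at 3.30-fold and Ntm at 2.54-fold. Gkn2, Sfn, Clu, Cda, Sdcbp2 and Rgs4 lay between 1.95-fold and 1.16-fold. Cldn4 status therefore still divided Tnfrsf11b, Sprr1a, Tnip3 and Ntm among cells already high in Krt8.

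Joint detection of the 10 genes was counted per cell after thinning. In null PNX 27.4% of alveolar cells held 3 or more of the 10 genes (509 of 1858, 25.4% to 29.5%). The share was 0.337% in null sham (8 of 2375), 0.0552% in control PNX (1 of 1810), 0.0673% in control sham (1 of 1486) and 0 of 114 null PNX lymphocytes. The mean was 2.02 genes per cell in null PNX, 0.4998 in null sham, 0.2497 in control PNX and 0.211 in control sham, and the most in any cell was 7, 5, 3 and 3. In null PNX 4.09% of cells held none, 32.7% held 1, 35.8% held 2 and 16.1% held 3. Clu and Sfn fill most of the counts of 1 and 2, since they were the genes detected in most cells. Without Clu, 11.2% of null PNX cells held 3 or more of the other 9 genes. Over cells with Sftpc at 2% or more only, 14.8% of null PNX cells (212 of 1434) and 0.170% of null sham cells (4 of 2358) held 3 or more of the 10 genes. Cells with 3 or more made up 44.1% of Cldn4-positive (440 of 998) and 8.02% of Cldn4-negative null PNX cells (69 of 860). In null sham the shares were 7.46% of Cldn4-positive (5 of 67) and 0.130% of Cldn4-negative cells (3 of 2308).

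**Figure D4:**
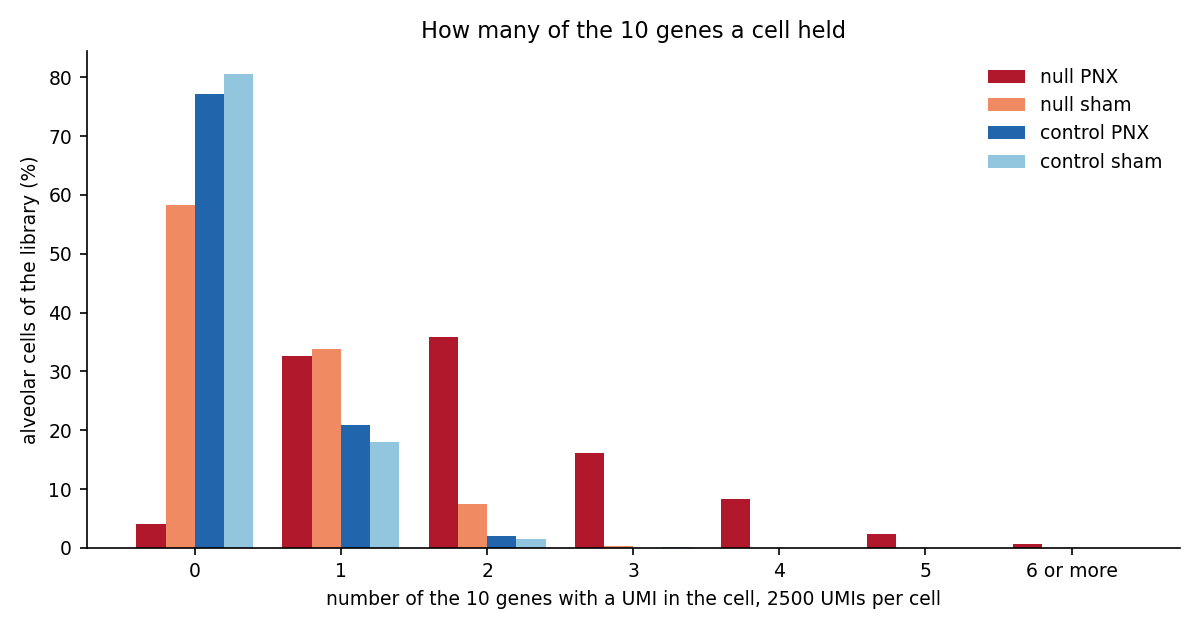
Share of alveolar cells in each library by how many of the 10 genes had a UMI, after thinning to 2500 UMIs per cell. Bars are single libraries in the order null PNX, null sham, control PNX and control sham. Most null PNX cells hold 1 or 2 of the genes, and 58.3% of null sham cells hold none.

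Null PNX cells with more of the 10 genes had less RNA of AT2 genes and more of transitional genes. The AT1 genes Ager, Aqp5 and Hopx did not all move alike. In cells with 0 or 1, 2, 3, and 4 or more of the genes (683, 666, 300 and 209 cells), Cldn4 stood at 50.2, 261, 714 and 1396 CPM and Krt8 at 1192, 2535, 3756 and 4877 CPM. Krt19 stood at 504, 1116, 2191 and 2955 CPM and Krt7 at 334, 839, 1773 and 2407 CPM, both simple epithelial keratins. Itgb6, the beta subunit of an integrin that activates latent TGF-beta, stood at 12.9, 34.8, 103 and 205 CPM. All of these climbed at every step, as did the cell-cycle inhibitor Cdkn1a at 221, 335, 548 and 714 CPM. Over the same steps Sftpc stood at 83267, 65481, 36809 and 17371 CPM, the lamellar body gene Lamp3 at 840, 696, 437 and 244 CPM and the AT2 transcription factor Etv5 at 184, 143, 83.9 and 46.1 CPM. The AT1 gene Ager was lower at each step too, at 1313, 1196, 974 and 590 CPM. The AT1 gene Aqp5 stood at 541, 544, 455 and 316 CPM, lower over the last steps. Hopx, another AT1 gene, stood at 32.8, 23.0, 49.3 and 46.1 CPM and was detected in 4.10%, 4.05%, 8.67% and 8.61% of thinned cells. The proliferation gene Mki67 stood at 10.3, 13.1, 8.64 and 5.62 CPM. Median depth was 10034, 11137, 11292 and 10722 UMIs in the unthinned cells, so these steps did not follow depth. The rule lets low-Sftpc cells in only with Cldn4, so the opposite steps of Cldn4 and Sftpc are in part set by the rule.

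Pairs of the 10 genes were compared with the number of cells expected if detection were independent, in thinned null PNX cells. Of 45 pairs, 41 were seen together more often than that, 7 of them at least 2-fold, and the median was 1.46. Pairs with Clu, which was detected in 93.0% of these cells, could hardly depart from 1 and lay between 1.01 and 1.08. The share over pairs of other genes was not counted, so nothing is read from the count of 41. The highest was Tnfrsf11b with Tnip3 at 4.46-fold (45 cells), then Ntm with Tnfrsf11b at 3.69 (16 cells), Ntm with Tnip3 at 2.77 (46 cells) and Ntm with Rgs4 at 2.61 (20 cells). The 4 pairs below 1 were Gkn2 with Ntm at 0.317 (1 cell), Gkn2 with Tnip3 at 0.544 (4 cells), Cda with Rgs4 at 0.644 (4 cells) and Gkn2 with Sprr1a at 0.804 (3 cells). Gkn2 was in 3 of these 4, on few cells: Tnip3 was detected in 7.84% of the 51 cells with Gkn2 (2.18% to 18.9%) and in 14.6% of cells without it (13.01% to 16.3%), with overlapping intervals. With Cldn4 itself, Tnfrsf11b reached 2.89-fold and Tnip3 2.55-fold, and with 10 or more Krt8 UMIs, Sprr1a reached 2.71-fold.

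**Figure D5:**
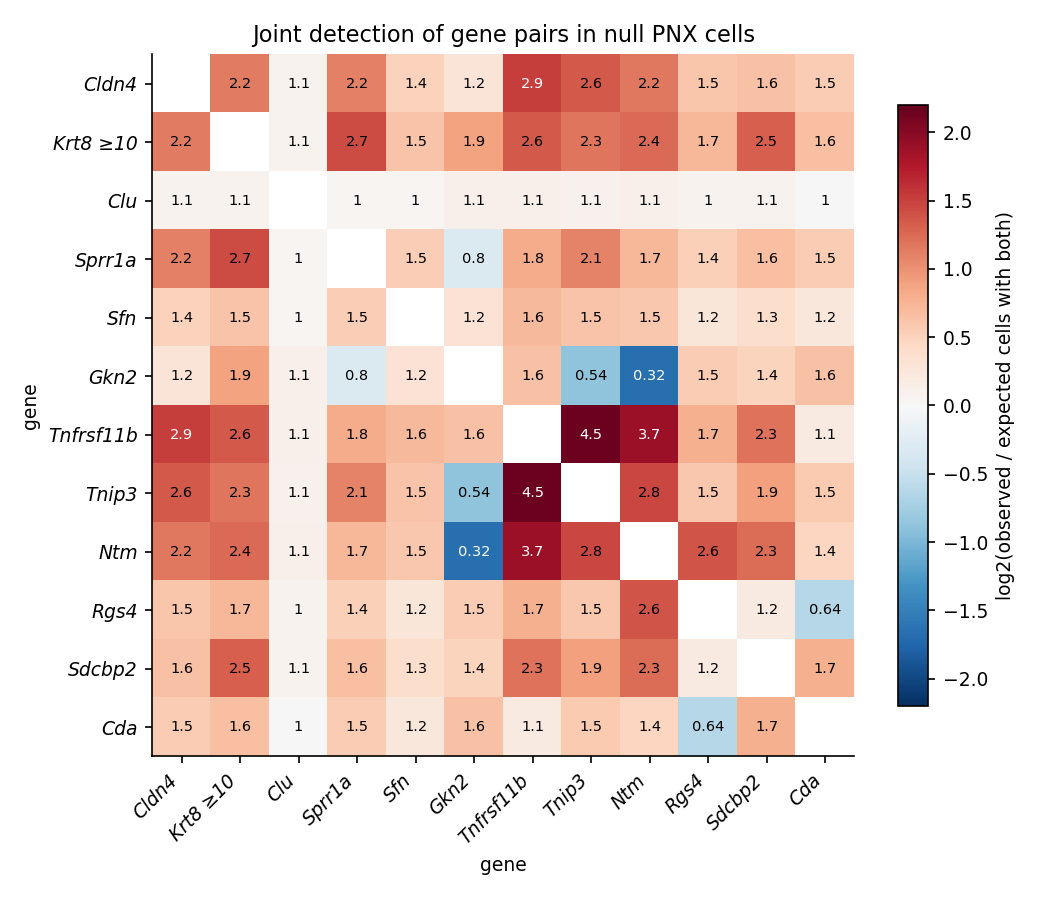
Joint detection of pairs of the 10 genes, Cldn4 and high Krt8 in thinned null PNX cells, as log2 of the observed over the expected number of cells with both. Colour gives the log2 value, red for more and blue for fewer cells than independence gives, and the printed figures are the ratio itself. The strongest square among the 10 genes joins Tnfrsf11b and Tnip3, and Gkn2 with Ntm is the lowest.

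Across the 1858 null PNX alveolar cells, the genes most alike to each of the 10 were found by Pearson's r of log(1 + UMIs per 10000), over 9219 genes detected in at least 5% of cells. All cells share 1 library, sparse counts hold r down, and genes are named at r of 0.3 or more. The nearest genes outside the 10 are given, and where another of the 10 was nearer still, this is said. Tnip3 was most like Cldn4 (0.64), AW112010 (0.56) and Itgb6 (0.55), and Tnfrsf11b was most like Cldn4 (0.41), AW112010 (0.38) and Itgb6 (0.37), with Tnip3 at 0.42 above them. Ntm was most like Itgb6 (0.42), Cldn4 (0.41) and Pdlim7 (0.41), with Clu at 0.48 above them. Tnip3, Tnfrsf11b and Ntm shared Cldn4 and Itgb6 among their nearest genes. Sfn was most like the keratin pair Krt8 and Krt18 (both 0.64) and Anxa1 (0.63). Clu was most like S100a11 (0.59), Cldn4 (0.59) and S100a6 (0.57), and Sprr1a was most like Cldn4 (0.34), Lgals3 (0.33) and F3 (0.32). No gene reached 0.3 with Gkn2, Rgs4, Sdcbp2 or Cda. With Sftpc, r was -0.64 for Tnip3, -0.63 for Clu, -0.53 for Sfn, -0.46 for Ntm and -0.37 for Tnfrsf11b, and near 0 for Gkn2 (-0.01) and Rgs4 (-0.09). Of the 1858 cells, 424 had Sftpc under 2% and entered only because they held Cldn4. Opposite r with Cldn4 and with Sftpc is therefore in part set by the cell rule, and r without those cells was not computed.

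By r and by the Cldn4 split over all alveolar cells, the name transitional marker thus held unevenly over the 10 genes. Tnip3, Tnfrsf11b, Sprr1a, Ntm, Clu and Sfn had Cldn4 or Krt8 among their nearest genes at r of 0.3 or more. Gkn2, Rgs4, Sdcbp2 and Cda had no gene at r of 0.3 or more. Their ratios of Cldn4-positive to Cldn4-negative cells, over all alveolar cells, were the lowest of the 10, at 2.29 to 3.45. Both measures include the 424 cells that entered only through Cldn4. Among cells with Sftpc at 2% or more, Clu had a lower ratio than Gkn2, Rgs4 and Sdcbp2, so this order depends on the cell rule. For Gkn2 the thinned shares of Cldn4-positive and Cldn4-negative cells had overlapping intervals. Sdcbp2 had Cldn4 among its nearest genes below that cut, at 0.28. Krt8 did not divide the genes in this way. All 10 were at least 2-fold higher at 10 or more Krt8 UMIs than at 0 or 1, by 3.46-fold to 23.2-fold. Sdcbp2 and Gkn2 had higher ratios there than Clu.

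Relatives and pathway partners of the 10 genes were followed in lists that were drawn up with earlier results of these data known. Levels of 10 CPM or more in the higher library were asked for. The background for null PNX over null sham is then 12.3% of 7772 genes at least 2-fold higher and 5.01% at least 2-fold lower, with a median log2 ratio of 0.27. Of 27 measured transitional-state genes, 23 were at least 2-fold higher and 0 lower, with a median log2 ratio of 2.44. Cyr61, a matricellular target of YAP, was at 35.9-fold and Cldn4 at 32.0-fold, and Anxa3, an annexin, was lowest at 1.61-fold. This list overlaps in its purpose with the genes described here and is no independent support.

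Of 6 measured cornified envelope and squamous genes, 3 were at least 2-fold higher in null PNX than in null sham. Ecm1, an extracellular matrix protein of skin, was at 8.40-fold and Tgm1, the transglutaminase that crosslinks the envelope, at 6.44-fold, and Ppl, periplakin, was lowest at 0.547. Of the 6 other 14-3-3 genes 1 was 2-fold higher, Ywhaq at 2.13-fold, and the other 5 were within 2-fold, whereas Sfn was at 5.08-fold. Of 14 p53 target genes 6 were 2-fold higher, with Phlda3 at 8.99-fold and Cdkn1a at 7.19-fold, and Bbc3, a pro-apoptotic target, was lowest at 0.801.

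Of 8 measured TNF receptor and osteoprotegerin ligand genes, 4 were at least 2-fold higher in null PNX than in null sham. Tnfrsf21, death receptor 6, was at 24.7-fold, Tnfrsf12a, the TWEAK receptor, at 5.69-fold and Ltbr lowest at 0.805. The ligands of osteoprotegerin were nearly absent in these cells: Tnfsf11, RANKL, stood at 0.143 CPM in null PNX and 0.206 in null sham, and Tnfsf10, TRAIL, at 0.478 in null PNX and 0.964 in null sham. Their receptor partner Tnfrsf11a, RANK, stood at 10.0 CPM in null PNX and 7.02 in null sham. Of 16 NF-kB feedback and target genes 5 were 2-fold higher, with the chemokine Cxcl1 at 3.61-fold and the NF-kB subunit Relb at 2.53-fold, and Birc3 was lowest at 0.642. The relatives of Tnip3 moved little, with Tnip1 at 1.46-fold and Tnip2 at 1.15-fold, and Tnfaip3, which encodes A20, was at 0.787.

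Of 3 measured RGS genes 1 was 2-fold higher, Rgs16 at 7.71-fold. Of 5 syntenin and syndecan genes 0 were 2-fold higher: Sdc1, a syndecan, reached 1.95-fold, Cd63 1.41-fold, the syntenin 1 gene Sdcbp 1.40-fold and Sdc4 0.891. Of 13 pyrimidine genes 5 were 2-fold higher, with Nt5e, the ectonucleotidase CD73, at 30.4-fold, Tyms, thymidylate synthase, at 2.68-fold and Tk2 lowest at 0.765. Of 5 BRICHOS and gastric genes 1 was 2-fold higher, Itm2a at 8.78-fold, and Sftpc, itself a BRICHOS protein, was lowest at 0.890. Of 4 IgLON genes 1 was in the table and 0 passed 10 CPM, so Ntm was the family's 1 gene with a level. Of 2 measured clusterin receptor genes 0 were 2-fold higher or 2-fold lower: Lrp2 was at 0.700 and Vldlr, another lipoprotein receptor, at 0.505.

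Between Cldn4-positive and Cldn4-negative null PNX cells, 22 of 27 transitional genes were at least 2-fold higher, against a background of 4.14% of genes at 10 CPM or more (1.18% for 2-fold lower). Of 17 NF-kB genes 5 were 2-fold higher and 1 lower, with Nfkbie, an inhibitor of NF-kB, at 4.16-fold, Nfkb2 at 2.96-fold and the antimicrobial gene Lcn2 at 0.464. Of 9 TNF receptor genes 4 were 2-fold higher, with the decoy receptor Tnfrsf23 at 5.26-fold, and of 15 p53 targets 3 were, with Phlda3 at 2.68-fold and Plk2 at 2.45-fold. Of 18 AT2 genes 0 were 2-fold higher and 7 were lower in Cldn4-positive cells, the only ones that the rule admits at low Sftpc. Of 11 AT1 genes 5 were 2-fold higher and 0 lower, with Hopx at 3.34-fold and Cav1, caveolin 1, at 3.01-fold, and Ager was lowest at 0.835.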

How the data were processed

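Single GFP+ lung cells were profiled by droplet-based 3′ sequencing in 4 libraries, 1 library per group, so nothing was tested and ratios describe libraries. The deposited table holds UMI counts per gene and cell, whole numbers with no normalization, from the authors. The submitters' processing notes name Cell Ranger 2.1.0, Seurat 2.3.4 and mm10. No source used here states which filters the deposited cells had passed. The ending of each barcode, matched to the labels, gave the library.

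Counts were summed over alveolar cells and divided by their total (CPM). Ratios carry exact conditional binomial 95% intervals, levels exact Poisson and shares exact Clopper-Pearson intervals. A gene at 0 was set to 3 UMIs per library. Shares of cells used counts thinned to 2500 UMIs per cell with a fixed seed. Background shares count genes with over 3 UMIs in either group, or with 10 CPM in the higher group for gene lists. Lymphocytes held at least 2 UMIs of 8 lymphocyte genes, Sftpc under 2% and no Cldn4. No doublet caller was run, and the 5% of alveolar cells with most UMIs were left out as an alternative. The code was tested on simulated data. Genes named were the 10 genes, the 3 nearest genes of each at r of 0.3 or more, and of each list the 2 highest and the lowest, with partners chosen after their values were seen. Members and lists were chosen with earlier results of these data known. Alternatives changed the cell rule, scaling, fold, thinning depth and cells kept. Python 3.11.15, numpy 2.4.6, scipy 1.17.1, matplotlib 3.10.9 and GENCODE M21 were used.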

Additional observations from a re-analysis of the deposited data

How the results depend on the processing

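Of 82 alternative values for the counts and the share, 67 stayed within the main range, 15 moved and 0 reversed. Asking for 4-fold left 5 genes for Cldn4-positive over Cldn4-negative cells and 3 for null sham over control sham. Asking for 10 CPM in the higher library left 2 genes for null sham over control sham and 0 for control PNX over control sham. Requiring Scgb1a1, Foxj1, Cd3e, Cd79a, Cd68 and Upk3b at 0 left 10 null PNX cells, and the counts became 2 for null PNX over null sham, 3 for null PNX over control PNX, 1 for Cldn4-positive over Cldn4-negative cells, and 0 for null sham over control sham and for control PNX over control sham; so few cells remained that the cause was not tested. The share of null PNX cells with 3 or more of the genes was 27.4%, and became 14.8% with Sftpc at 2% only, 30% of those 10 cells, 55.0% without thinning, 18.7% at 1500 UMIs, 35.5% at 4000 UMIs and 11.2% without Clu. It therefore depends on depth and on the cell rule. Leaving out Clu and leaving out the cells rich in Scgb1a1 were chosen after seeing the data. Size factors shifted log2 ratios by 0.12 to 0.24 and changed no count. Of 470 alternative values for single genes 69 moved; 112 of 112 for null PNX over null sham kept their direction, and 55 of 56 for control PNX over control sham, where Clu went to a log2 ratio of -0.16 with the extra genes at 0. No paired analysis was possible because each group is 1 library. With 1 library per group, spread between mice is unknown, and levels of a few UMIs are limited by depth.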
